A study of Brassica napus with 48 samples.

Results

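Developing seeds of the rapeseed (Brassica napus) spring hybrid Lumen were compared between a late and an optimal sowing date in shaded field plots at 14 days after flowering (DAF), counted from the start of shading. The members are 6 of the 48 libraries of the series, defined by their labels and not by any measured value. The comparison was chosen with earlier results of these data known. They are 3 libraries of late-sown, shaded Lumen at 14 DAF (called Delayed in the deposited column names) and 3 libraries of optimal-sown, shaded Lumen at 14 DAF. Both groups share the hybrid, the sampling day and the shading: black nets intercepted 75% of the radiation from the start of flowering until 15 DAF, which lowers the source–sink (S–S) ratio, the supply of assimilates per growing seed. Plots without nets are called control plots here. Each library is total RNA from seeds of 25 siliques on each of 5 plants from 1 plot, so a replicate is a plot and a pool of plants. Sowing dates were laid out as main plots, so the sowing date cannot be told apart from the main plot or from the weather and calendar time at which the seeds grew. Across these 6 libraries, 101040 genes are listed and 53585 were expressed well enough to be tested.

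Rapeseed seeds grow through a phase of cell division and expansion, and then fill with oil and storage protein. During filling the transcription factor WRI1 switches on the genes of plastidial fatty acid synthesis, oleosins coat the oil bodies in which the oil is stored, and the seed coat makes flavonoids that are exported and condensed into proanthocyanidins. These processes are known best from Arabidopsis, and Arabidopsis orthologs are given below where the sources name them. In RNA from whole seeds, fewer cells of a type and less RNA per cell cannot be told apart, nor can a seed that is more advanced in its development be told apart from a seed of the same stage with other levels.

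No read counts were analysed, which leaves the depth behind a value unknown. The values are normalized TPM (transcripts per 1000000 transcripts, the usual length-corrected unit) in whole numbers, and they summed to 1219379, 1007998 and 1126252 in late-sown replicates 1, 2 and 3 and to 1002623, 944925 and 1038436 in optimal-sown replicates 1, 2 and 3. Pearson's r between libraries of a group, over 29052 genes on the log2 scale, was 0.893 to 0.951 among the late-sown and 0.797 to 0.926 among the optimal-sown libraries. A library numbered 2 stood apart in each group. On the first principal component of the 24 Lumen libraries (37% of the variance), late-sown replicates 1, 2 and 3 lay at 167.7, 72.59 and 144.58, and optimal-sown replicates at -19.66, -87.47 and -1.43. Results are therefore also given without single libraries where the call changes. Of the marker lists for other seed tissues, the seed coat list had 1 annotated gene, TT12, which is described with the flavonoid genes. The markers of embryo, endosperm and fruit wall, and the storage proteins, were not analysed here. An annotation was at hand for 5779 of the 101040 genes. The gene lists below hold only members among these annotated genes, so a list is not a whole gene family.

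Late and optimal sowing differed widely in these seeds. At an adjusted p under 0.01, 3630 of the 53585 genes tested differed (6.77%), of which 1792 were higher (3.34%) and 1838 were lower (3.43%) in late-sown seeds. The test was limma on log2(TPM + 0.5) with Benjamini-Hochberg adjustment, and "called" below means past this threshold. Fold changes are late minus optimal on that log2 scale, which understates changes of genes with low values. The 6 libraries did not overlap between the groups for 11015 genes (20.6%), of which 5732 were higher (10.7%) and 5283 lower (9.86%), among them 3570 of the 3630 called genes. The number of calls rested on single libraries: it was 1354 without late-sown replicate 1, 1630 without late-sown replicate 3, 1455 without optimal-sown replicate 2 and 5601 without late-sown replicate 2. No called gene changed sign in any of these fits, and 1129 genes (661 higher and 468 lower) were called whichever of the 6 libraries was left out. Without both libraries numbered 2, an alternative chosen after seeing the data, 3247 genes were called (1632 higher and 1615 lower). When the 6 libraries were fitted alone, without the spread of the other Lumen groups, 440 genes were called, and 136 of the 3630 kept their call. The split between higher and lower calls depended on the scaling and the filter. It was 1268 higher and 2147 lower when each library was rescaled to the same sum, which moved the median of all genes to -0.14, and 2525 higher and 1831 lower with no filter on low values.

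**Figure D1:**
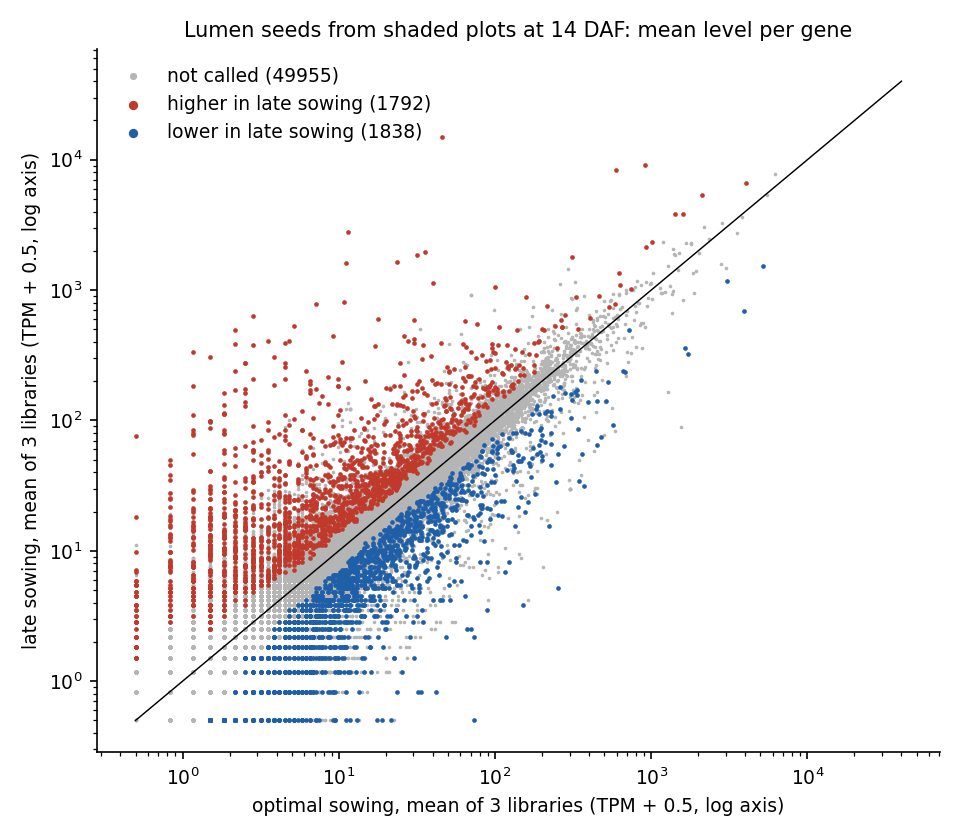
Mean TPM + 0.5 of the 3 late-sown libraries (vertical axis, log scale) against that of the 3 optimal-sown libraries (horizontal axis, log scale), with 1 point per gene tested. The 1792 genes called higher and the 1838 called lower in late-sown seeds lie on either side of the line of equal means, with 49955 genes not called around it.

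The genes called higher also took up more of the measured RNA. In the plot of group means they reach far above the line at high levels, and their TPM summed to 19.2, 11.1 and 16.6% of the total in late-sown replicates 1, 2 and 3, against 5.49, 4.42 and 4.89% in the optimal-sown libraries. The genes called lower summed to 1.36, 3.22 and 1.92% in the late-sown libraries and to 5.96, 7.85 and 6.29% in the optimal-sown libraries. In both sums late-sown replicate 2 was the late-sown library nearest to the optimal-sown ones. Since the calls were made on these libraries, the sums are a description.

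Some genes of oil synthesis, among them the regulator WRI1, were higher in late-sown seeds. Of the 24 annotated genes of fatty acid and oil synthesis, all of which were tested, 7 were called higher (29.2%), 1 lower (4.17%) and 16 neither. Over the annotated genes tested, 4.6% were called higher and 5.1% lower. The median difference of the 24 genes was 0.45, against 0.00 over all genes tested. The number called higher lay between 5 and 12 when 1 library was left out. All 3 tested copies of WRI1, the transcription factor that activates fatty acid synthesis, were called. WRI1 copy BnaA07g16350D was at 119, 21 and 94 TPM in late-sown replicates 1, 2 and 3 and at 2, 1 and 1 TPM in optimal-sown replicates 1, 2 and 3 (log2 fold change 5.13, SE 0.60, adjusted p = 3.5e-05). Every late-sown library exceeded every optimal-sown library, though late-sown replicate 2 was the lowest of its group by far. The copy BnaC08g25150D was at 134, 23 and 93 TPM in late-sown and at 3, 4 and 5 TPM in optimal-sown seeds (3.91, SE 0.48, adjusted p = 5.1e-05). The copy BnaA09g34250D was at 87, 14 and 61 TPM in late-sown and at 2, 3 and 3 TPM in optimal-sown seeds (3.77, SE 0.50, adjusted p = 9.0e-05). In late-sown seeds the 3 copies thus had the same order of libraries, and the call of each held whichever library was left out.

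Targets of WRI1 in Arabidopsis include BCCP2, a subunit of the plastidial acetyl-CoA carboxylase that makes the first committed intermediate of fatty acids. Its copy BnaA03g05470D was at 44, 12 and 24 TPM in late-sown and at 7, 6 and 6 TPM in optimal-sown seeds (1.81, SE 0.35, adjusted p = 0.0019). Its copy BnaC03g07000D was at 30, 8 and 19 TPM in late-sown and at 4, 5 and 4 TPM in optimal-sown seeds (1.84, SE 0.33, adjusted p = 0.0012). Its copy BnaA10g18680D was far lower, at 14, 2 and 5 TPM in late-sown and at 1, 0 and 0 TPM in optimal-sown seeds (3.02, SE 0.65, adjusted p = 0.0042). The groups did not overlap for any copy. The call of BnaC03g07000D held without each library, whereas BnaA03g05470D reached an adjusted p of 0.0144 without late-sown replicate 1, 0.010 without late-sown replicate 3 and 0.011 without optimal-sown replicate 2, and BnaA10g18680D lay between 0.0163 and 0.0359 without any of these or without optimal-sown replicate 3.

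The 2 desaturase genes that were called moved in opposite directions. BnaC01g07470D, whose ortholog AT4G30950 encodes the plastidial omega-6 desaturase FAD6, was at 34, 22 and 34 TPM in late-sown and at 11, 11 and 8 TPM in optimal-sown seeds (1.52, SE 0.19, adjusted p = 5.1e-05). BnaC03g37090D, whose ortholog AT3G11170 encodes a plastidial omega-3 desaturase, was at 2, 3 and 2 TPM in late-sown and at 5, 6 and 5 TPM in optimal-sown seeds (-1.06, SE 0.21, adjusted p = 0.0024). The second was the only gene of the oil synthesis list that was called lower, and its adjusted p lay between 0.0156 and 0.0175 without late-sown replicates 1 or 3 or optimal-sown replicate 2.

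Both tested oleosin genes were called higher (2 of 4 annotated oil body genes passed the filter, and these were the ones tested). BnaC04g38160D, ortholog AT2G25890, was at 60, 5 and 22 TPM in late-sown and at 0, 1 and 1 TPM in optimal-sown seeds (4.23, SE 0.66, adjusted p = 4.0e-04). BnaC08g03140D, ortholog AT1G48990, was at 25, 4 and 18 TPM in late-sown and at 1, 0 and 2 TPM in optimal-sown seeds (3.38, SE 0.69, adjusted p = 0.0031). These 2 genes were thus near 0 in all optimal-sown libraries and clearly present in late-sown replicates 1 and 3. Oleosin genes without an annotation here were not examined. BnaC04g38160D was called without each library, and BnaC08g03140D was not called without late-sown replicates 1 or 3 or optimal-sown replicate 2 (adjusted p between 0.019 and 0.026). The filter also removed OLEO2 copy BnaA07g14960D, which was at 14, 0 and 3 TPM in late-sown seeds and listed at 0 in every optimal-sown library.

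**Figure D2:**
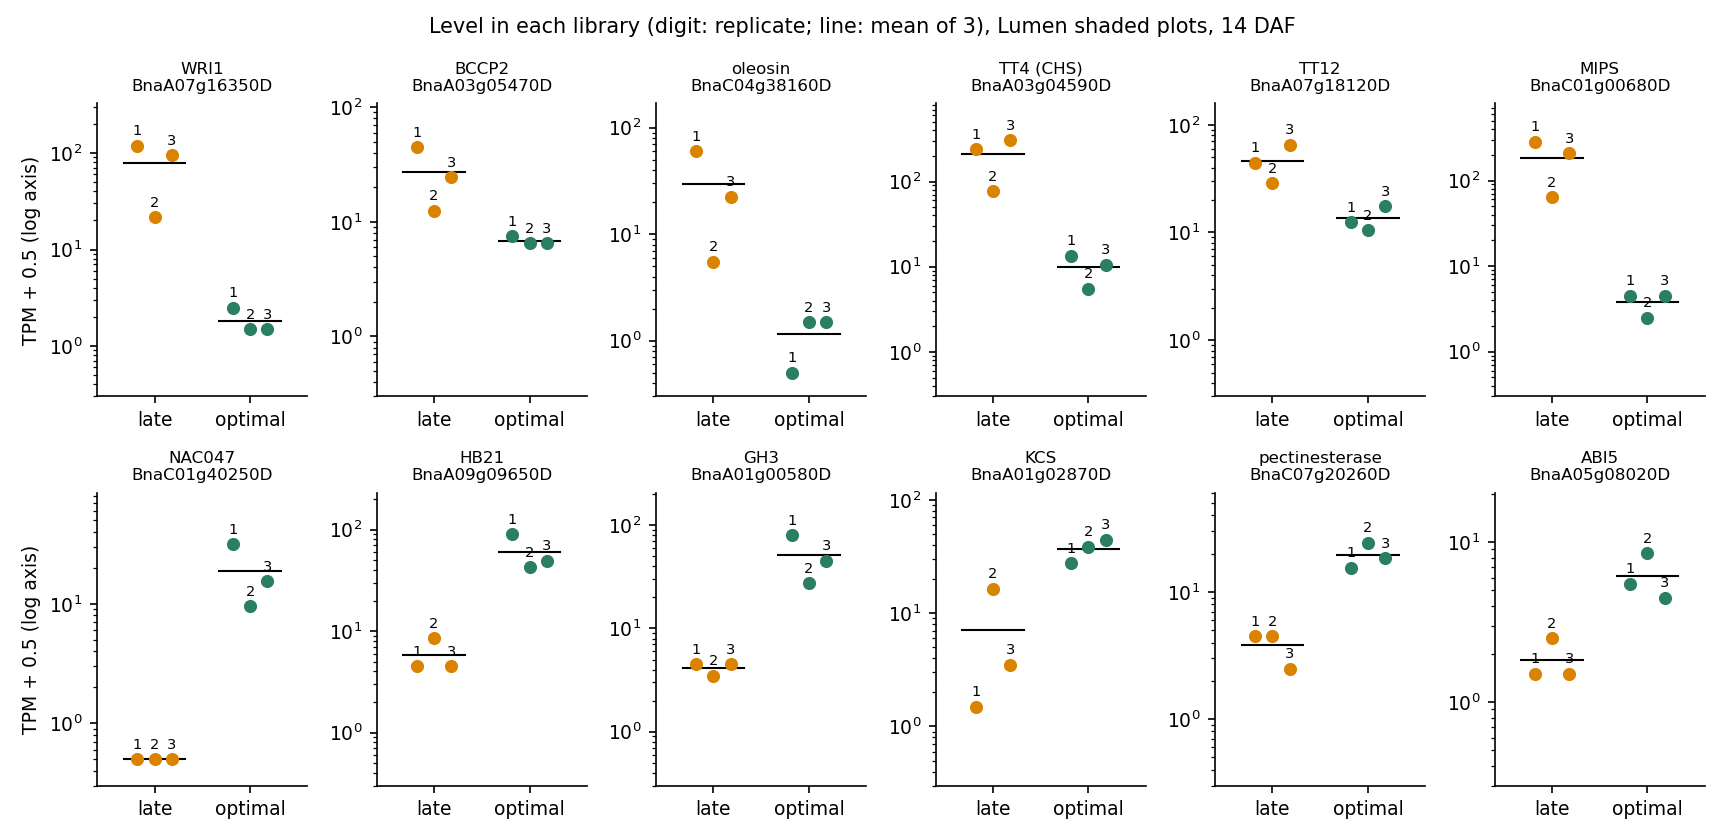
TPM + 0.5 (log axis) of 12 genes in the 3 late-sown libraries (left in each panel) and the 3 optimal-sown libraries (right), with the digit giving the replicate and the line the group mean. WRI1, BCCP2, oleosin, TT4, TT12 and MIPS are higher in late-sown seeds, NAC047, HB21, GH3, 3-ketoacyl-CoA synthase, pectinesterase and ABI5 are lower, and no panel shows an overlap between the groups.

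Most tested genes of the flavonoid pathway were higher in late-sown seeds. Of 14 annotated genes of flavonoid and proanthocyanidin synthesis 13 were tested. Of these, 8 were called higher (61.5%, against 4.6% over the annotated genes tested), 0 lower and 5 neither. The median was 2.05, and 8 were called higher whichever library was left out. The entry enzyme of the pathway, chalcone synthase (TT4), had 3 called copies. TT4 copy BnaA03g04590D was at 241, 76 and 307 TPM in late-sown and at 13, 5 and 10 TPM in optimal-sown seeds (4.28, SE 0.44, adjusted p = 1.8e-05). Copy BnaC03g06120D was at 146, 52 and 202 TPM in late-sown and at 12, 5 and 7 TPM in optimal-sown seeds (3.85, SE 0.51, adjusted p = 8.9e-05). Copy BnaA10g19670D had the highest level, with 629, 232 and 795 TPM in late-sown and 75, 59 and 96 TPM in optimal-sown seeds (2.69, SE 0.40, adjusted p = 2.4e-04). Late-sown replicate 3 was the highest and late-sown replicate 2 the lowest of its group for each copy.

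The following steps of the pathway moved the same way. Chalcone isomerase (TT5, BnaC08g26020D), which closes the flavanone ring, was at 276, 130 and 311 TPM in late-sown and at 54, 35 and 62 TPM in optimal-sown seeds (2.18, SE 0.30, adjusted p = 1.1e-04). BnaA10g25120D, a chalcone isomerase family gene with ortholog AT5G05270, was at 426, 247 and 462 TPM in late-sown and at 127, 105 and 127 TPM in optimal-sown seeds (1.61, SE 0.21, adjusted p = 7.3e-05). Flavanone 3-hydroxylase (F3H) had 2 called copies, which act at the next step. F3H copy BnaC08g22640D was at 288, 129 and 359 TPM in late-sown and at 57, 41 and 48 TPM in optimal-sown seeds (2.29, SE 0.27, adjusted p = 4.0e-05). Copy BnaA09g31780D was at 146, 62 and 186 TPM in late-sown and at 23, 20 and 26 TPM in optimal-sown seeds (2.36, SE 0.29, adjusted p = 5.1e-05). TT12 (BnaA07g18120D), the vacuolar transporter that loads proanthocyanidin precursors in the Arabidopsis seed coat, was at 44, 28 and 65 TPM in late-sown and at 12, 10 and 17 TPM in optimal-sown seeds (1.73, SE 0.26, adjusted p = 2.6e-04). As the single seed coat marker that could be measured, TT12 moved with the flavonoid genes, and its part in their rise was not tested. By contrast, TT7 (BnaA10g23330D), the flavonoid 3'-hydroxylase, was not called, with 153, 228 and 260 TPM in late-sown and 193, 165 and 220 TPM in optimal-sown seeds (0.12, SE 0.18), a sign that flips to -0.04 when each library is rescaled to the same sum. Flavonol synthase FLS1 (BnaA10g22800D) was not called either, with 12, 27 and 18 TPM in late-sown and 24, 24 and 28 TPM in optimal-sown seeds (-0.48, SE 0.27).

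Among annotated genes the largest rise was that of BnaA01g04810D, which carries a tapetum determinant domain (ortholog AT4G32105). It was at 5670, 328 and 2390 TPM in late-sown and at 6, 2 and 25 TPM in optimal-sown seeds (7.79, SE 0.93, adjusted p = 4.0e-05). Its neighbour in number and paralog BnaA01g04820D was at 154, 14 and 69 TPM in late-sown and at 0, 0 and 2 TPM in optimal-sown seeds (5.98, SE 0.84, adjusted p = 1.4e-04). Reads of such close paralogs may have been split between them when they were assigned. BnaC01g00680D, a myo-inositol-1-phosphate synthase (MIPS, ortholog AT4G39800) that makes the precursor of phytate, was at 285, 63 and 207 TPM in late-sown and at 4, 2 and 4 TPM in optimal-sown seeds (5.39, SE 0.60, adjusted p = 3.0e-05). BnaC07g18750D, whose ortholog AT5G45890 is the senescence-associated cysteine protease SAG12, was at 1903, 567 and 3145 TPM in late-sown and at 39, 32 and 23 TPM in optimal-sown seeds (5.59, SE 1.01, adjusted p = 0.0013). Without late-sown replicate 3 its adjusted p was 0.0103. In control plots at 14 DAF this protease was not called (adjusted p = 0.27), with 1594, 1509 and 1642 TPM in late-sown and 1844, 216 and 200 TPM in optimal-sown seeds.

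Further annotated genes among the 10 largest rises were spread over other functions. BnaA10g22980D, with a VQ motif, was at 87, 41 and 84 TPM in late-sown and at 3, 1 and 4 TPM in optimal-sown seeds (4.56, SE 0.51, adjusted p = 3.0e-05). BnaC05g27600D, a ubiquitin-conjugating enzyme, was at 123, 27 and 71 TPM in late-sown and at 3, 0 and 7 TPM in optimal-sown seeds (4.73, SE 0.91, adjusted p = 0.0021), and lost its call without late-sown replicates 1 or 3 or optimal-sown replicate 2 (adjusted p between 0.0112 and 0.0173). Orthologs are named for BnaA03g26710D (AT5G37474) and BnaC07g44800D (AT4G35725), with no described domain. BnaA03g26710D was at 1451, 232 and 658 TPM in late-sown and at 5, 0 and 15 TPM in optimal-sown seeds (7.44, SE 0.95, adjusted p = 6.6e-05). BnaC07g44800D was at 1789, 91 and 535 TPM in late-sown and at 11, 0 and 20 TPM in optimal-sown seeds (6.50, SE 1.38, adjusted p = 0.0039, between 0.0182 and 0.032 without late-sown replicates 1 or 3 or optimal-sown replicate 2). Over all genes, annotated or not, the largest rise was that of BnaC04g30640D. It was at 30913, 2150 and 12120 TPM in late-sown and at 30, 3 and 102 TPM in optimal-sown seeds (8.71, SE 1.04, adjusted p = 4.0e-05), with late-sown replicate 1 far above the others of its group. The next were BnaA01g27700D, with 1142, 131 and 613 TPM in late-sown and 0, 0 and 7 TPM in optimal-sown seeds, and BnaC03g31600D, with 2963, 429 and 1460 TPM in late-sown and 6, 0 and 26 TPM in optimal-sown seeds. No source used here annotates these 3 genes.

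The genes that fell included transcription factors that were listed at 0 in every late-sown library. The NAC family of plant transcription factors includes regulators of senescence and stress responses. Of 40 annotated NAC genes 31 were tested, of which 7 were called lower (22.6%) and 1 higher (3.23%), with a median of -0.70. Over the annotated genes tested, the shares were 5.1% lower and 4.6% higher. The annotated NAC genes include factors that the study drew from networks of these samples. The number of NAC genes called lower lay between 4 and 7 when 1 library was left out. NAC047 copy BnaC01g40250D was listed at 0 in all 3 late-sown libraries and was at 31, 9 and 15 TPM in optimal-sown seeds (adjusted p = 1.0e-04). Its copy BnaA05g37410D was likewise listed at 0 in late-sown seeds and was at 19, 6 and 7 TPM in optimal-sown seeds (adjusted p = 7.5e-04). NAP (BnaA07g24270D), a promoter of leaf senescence in Arabidopsis, was listed at 0 in late-sown seeds and was at 7, 2 and 6 TPM in optimal-sown seeds (adjusted p = 6.2e-04). The NAC gene BnaC07g25530D (ortholog AT3G29035) was listed at 0 in late-sown seeds and was at 7, 3 and 4 TPM in optimal-sown seeds (adjusted p = 1.5e-04). These 4 calls held without each library, and no fold is given for genes at 0 in a whole group.

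The homeodomain genes HB21 and HB40, which promote the accumulation of abscisic acid in Arabidopsis buds, fell as well. HB21 copy BnaA09g09650D was at 4, 8 and 4 TPM in late-sown and at 90, 42 and 49 TPM in optimal-sown seeds (-3.37, SE 0.47, adjusted p = 1.3e-04). HB21 copy BnaCnng58720D was at 2, 2 and 2 TPM in late-sown and at 31, 10 and 18 TPM in optimal-sown seeds (-2.87, SE 0.46, adjusted p = 4.6e-04). HB40 (BnaC01g02120D) was listed at 0 in late-sown seeds and was at 6, 2 and 2 TPM in optimal-sown seeds (adjusted p = 0.0044, between 0.0114 and 0.0231 without late-sown replicates 1 or 3 or optimal-sown replicates 1 or 2). NGAL2 (BnaC01g44850D), a B3 transcription factor that restricts seed growth in Arabidopsis, was at 1, 1 and 1 TPM in late-sown and at 11, 5 and 5 TPM in optimal-sown seeds (-2.23, SE 0.36, adjusted p = 4.9e-04). For these genes too the optimal-sown libraries were spread more widely than the late-sown ones, and optimal-sown replicate 1 was the highest.

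These factors belong to lists of transcription factors that the study drew from co-expression networks of these samples, so their direction is not independent evidence. Of 19 factors of the 14 DAF network 18 were tested, of which 11 were called lower and 0 higher (median -2.60), and all 18 differences were negative. The number called lower lay between 7 and 10 when 1 library was left out. Of 81 factors of the 7 DAF network 78 were tested, of which 12 were called lower and 0 higher (median -0.88). Other factors that the study named were mostly at low levels here and were not called. NAC3 (BnaA05g24050D) was at 2, 1 and 1 TPM in late-sown and at 7, 3 and 5 TPM in optimal-sown seeds (adjusted p = 0.12). The bZIP3 gene (BnaA03g05670D) was listed at 0 in late-sown seeds and was at 2, 1 and 2 TPM in optimal-sown seeds (adjusted p = 0.044). LRL1 (BnaA09g41470D) was at 1, 1 and 0 TPM in late-sown and at 3, 1 and 2 TPM in optimal-sown seeds. NAC082 (BnaC09g47170D) was at 13, 10 and 14 TPM in late-sown and at 13, 12 and 11 TPM in optimal-sown seeds. Its difference was 0.03 (SE 0.29) and turns to -0.13 when each library is rescaled to the same sum. NAC041 (BnaC04g43920D) was at 7, 2 and 5 TPM in late-sown and at 7, 4 and 4 TPM in optimal-sown seeds. CRF6 (BnaA07g38140D), a cytokinin response factor, was at 5, 3 and 3 TPM in late-sown and at 4, 4 and 4 TPM in optimal-sown seeds, so the groups overlapped for LRL1, NAC082, NAC041 and CRF6.

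The largest falls also included enzymes. The cytochrome P450 gene BnaA01g00520D was at 0, 1 and 0 TPM in late-sown and at 48, 18 and 34 TPM in optimal-sown seeds (-5.44, SE 0.90, adjusted p = 6.1e-04). A second P450 gene, BnaC01g01500D, was at 2, 2 and 2 TPM in late-sown and at 117, 39 and 42 TPM in optimal-sown seeds (-4.54, SE 0.82, adjusted p = 0.0012). BnaA01g00580D, of the GH3 family that conjugates auxin and other acids to amino acids (ortholog AT1G59500), was at 4, 3 and 4 TPM in late-sown and at 80, 27 and 45 TPM in optimal-sown seeds (-3.49, SE 0.48, adjusted p = 1.2e-04). All 3 genes were called without each library. The aspartic peptidase gene BnaA04g04140D was at 0, 3 and 0 TPM in late-sown and at 8, 14 and 9 TPM in optimal-sown seeds (-3.46, SE 0.56, adjusted p = 4.9e-04). BnaC06g32210D, with a heavy metal-associated domain (ortholog AT1G71050), was at 1, 1 and 0 TPM in late-sown and at 17, 15 and 10 TPM in optimal-sown seeds (-3.77, SE 0.48, adjusted p = 7.3e-05). Among the 10 largest falls were also genes with no known role named here. BnaC01g02970D, with a domain of unknown function (ortholog AT4G35690), was listed at 0 in late-sown seeds and was at 23, 6 and 9 TPM in optimal-sown seeds (adjusted p = 4.8e-05). BnaC04g16470D (ortholog AT2G27830) was at 0, 0 and 2 TPM in late-sown and at 18, 5 and 8 TPM in optimal-sown seeds, and lost its call without late-sown replicate 1 or optimal-sown replicate 1 (adjusted p = 0.0203 and 0.0134). BnaA07g23280D, annotated as a pollen coat protein that binds an S locus-related glycoprotein (ortholog AT3G43505), was at 1, 0 and 0 TPM in late-sown and at 40, 3 and 81 TPM in optimal-sown seeds, and was called without optimal-sown replicate 2 and lost its call without any other single library (adjusted p between 0.011 and 0.029). Over all genes the largest falls were those of BnaA06g16650D, listed at 0 in late-sown seeds and at 131, 27 and 60 TPM in optimal-sown seeds, and BnaCnng18480D, with 3, 3 and 8 TPM in late-sown and 475, 119 and 159 TPM in optimal-sown seeds (-5.47, SE 0.85, adjusted p = 3.8e-04), neither of which is annotated.

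Some genes that elongate fatty acids to very long chains, for waxes and other lipids, were lower in late-sown seeds. Of 9 annotated 3-ketoacyl-CoA synthases and related elongation genes 8 were tested. Of these, 4 were called lower (50%, against 5.1% over the annotated genes tested), 0 higher and 4 neither. The median was -1.12, and all 8 differences were negative. These calls rested on single libraries: 0 were called without late-sown replicate 1, and 1 without late-sown replicate 3 or without optimal-sown replicate 2, and the adjusted p of the lost calls lay between 0.0102 and 0.0215. The 3-ketoacyl-CoA synthase BnaA01g02870D (ortholog AT4G34250) was at 1, 16 and 3 TPM in late-sown and at 27, 38 and 44 TPM in optimal-sown seeds (-3.03, SE 0.57, adjusted p = 0.0016). BnaC01g04130D, with the same ortholog, was at 0, 7 and 2 TPM in late-sown and at 17, 33 and 18 TPM in optimal-sown seeds (-3.39, SE 0.70, adjusted p = 0.0032). In both, late-sown replicate 2 lay between the groups. BnaC07g44970D, also with ortholog AT4G34250, was at 1, 1 and 1 TPM in late-sown and at 2, 4 and 3 TPM in optimal-sown seeds (-1.18, SE 0.23, adjusted p = 0.0022). BnaC07g04810D (ortholog AT2G15090) was at 1, 4 and 2 TPM in late-sown and at 8, 17 and 7 TPM in optimal-sown seeds (-2.02, SE 0.37, adjusted p = 0.0013).

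Genes that loosen the cell wall or modify pectin, which act during cell expansion, were lower in part. Of 24 annotated genes 18 were tested, of which 5 were called lower (27.8%) and 1 higher (5.56%), with a median of -0.81. Over the annotated genes tested, the shares were 5.1% lower and 4.6% higher. Of the 18 genes, 2 to 7 were called lower when 1 library was left out. The pectinesterase BnaC07g20260D (ortholog AT5G47500) was at 4, 4 and 2 TPM in late-sown and at 15, 24 and 18 TPM in optimal-sown seeds (-2.37, SE 0.27, adjusted p = 3.1e-05). The expansin BnaC04g40170D (ortholog AT2G28950) was at 1, 2 and 1 TPM in late-sown and at 7, 12 and 6 TPM in optimal-sown seeds (-2.25, SE 0.30, adjusted p = 9.1e-05). Both were called without each library. The pectinesterase inhibitor BnaA07g23730D was listed at 0 in late-sown seeds and was at 2, 2 and 1 TPM in optimal-sown seeds (adjusted p = 0.0036, between 0.0143 and 0.0209 without late-sown replicates 1 or 3 or optimal-sown replicates 1 or 2). Unlike the genes called lower, another pectinesterase, BnaC03g38460D (ortholog AT3G14300), was at 50, 20 and 68 TPM in late-sown and at 7, 3 and 13 TPM in optimal-sown seeds (2.55, SE 0.48, adjusted p = 0.0018, between 0.0132 and 0.0148 without late-sown replicates 1 or 3 or optimal-sown replicate 2).

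Peroxidases and aquaporins changed in both directions. Of 16 tested peroxidases (19 annotated), enzymes that cross-link cell wall polymers, 3 were called higher and 3 lower. Each share was 18.8%, against 4.6% higher and 5.1% lower over the annotated genes tested. BnaC06g21080D was at 174, 109 and 167 TPM in late-sown and at 47, 53 and 54 TPM in optimal-sown seeds (1.51, SE 0.18, adjusted p = 4.0e-05) and was called without each library. BnaC08g22410D (ortholog AT3G50990, a peroxidase of the seed coat epidermis in Arabidopsis) was at 13, 5 and 4 TPM in late-sown and at 2, 1 and 1 TPM in optimal-sown seeds (1.96, SE 0.37, adjusted p = 0.0019, with 0.0143 and 0.013 without late-sown replicate 1 and optimal-sown replicate 2). In the other direction, BnaC06g32660D (ortholog AT1G71695) was at 5, 17 and 6 TPM in late-sown and at 37, 44 and 27 TPM in optimal-sown seeds (-2.07, SE 0.41, adjusted p = 0.0027). BnaC01g25860D (ortholog AT3G49110) was at 1, 2 and 2 TPM in late-sown and at 9, 11 and 4 TPM in optimal-sown seeds (-1.90, SE 0.43, adjusted p = 0.0060). Both falls lost their call without late-sown replicates 1 or 3 or optimal-sown replicate 2 (adjusted p between 0.0159 and 0.0414), the second also without optimal-sown replicate 1 (0.0224).

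Of 10 tested aquaporins (12 annotated), the water channels of plant membranes, 3 were called higher (30%) and 2 lower (20%). Over the annotated genes tested, the shares were 4.6% higher and 5.1% lower. BnaC08g31360D (ortholog AT3G61430) was at 22, 19 and 19 TPM in late-sown and at 13, 11 and 12 TPM in optimal-sown seeds (0.71, SE 0.11, adjusted p = 4.7e-04). BnaA08g10860D (ortholog AT4G35100) was at 567, 444 and 494 TPM in late-sown and at 373, 323 and 321 TPM in optimal-sown seeds (0.56, SE 0.11, adjusted p = 0.0030, between 0.012 and 0.0246 without late-sown replicates 1 or 3 or optimal-sown replicates 2 or 3). The falls were of other plasma membrane channels. BnaA09g33720D (ortholog AT3G53420) was at 10, 5 and 10 TPM in late-sown and at 19, 21 and 17 TPM in optimal-sown seeds (-1.20, SE 0.21, adjusted p = 0.0010). BnaC05g00440D (ortholog AT1G01620) was at 53, 52 and 50 TPM in late-sown and at 85, 90 and 67 TPM in optimal-sown seeds (-0.63, SE 0.12, adjusted p = 0.0014, 0.0128 without optimal-sown replicate 2).

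**Figure D3:**
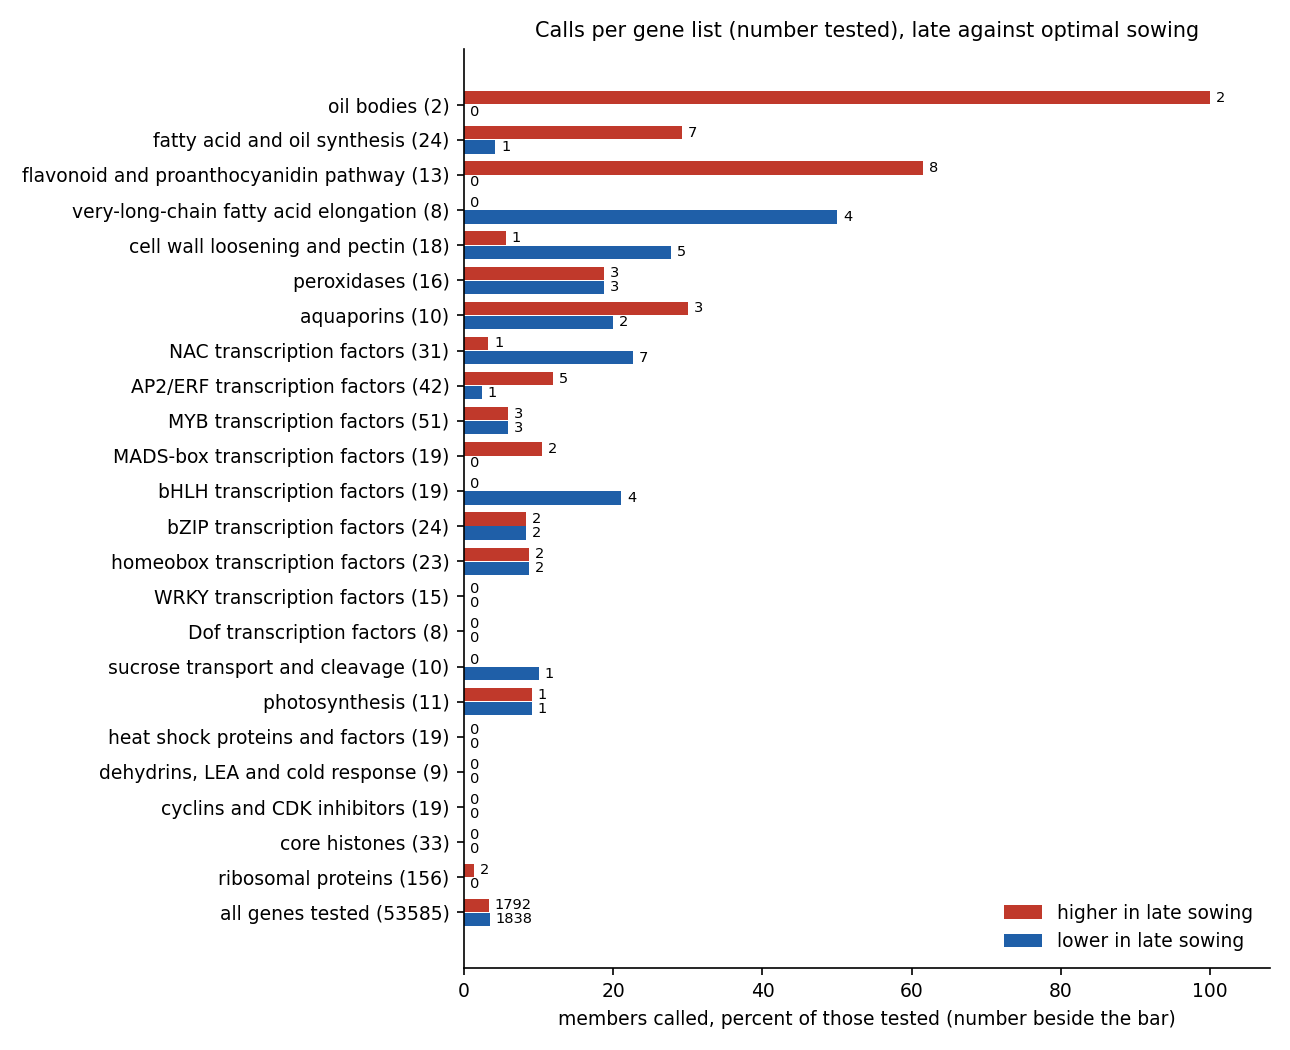
Percent of the tested members of each gene list called higher or lower in late-sown against optimal-sown seeds, with the counts beside the bars. Among the lists shown, oil bodies and the flavonoid pathway have the highest shares called higher (100% and 61.5%). Very-long-chain fatty acid elongation has the highest share called lower (50%). Over all genes tested the shares are 3.34% higher and 3.43% lower.

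Over the 5023 annotated genes tested, 4.6% were called higher and 5.1% lower. Of 42 tested AP2/ERF genes (47 annotated) 5 were called higher (11.9%), of which 3 are the WRI1 copies, and 1 was called lower (2.38%, median -0.36). That 1 was BnaC08g30700D (ortholog AT3G60490), with 0, 1 and 0 TPM in late-sown and 3, 5 and 3 TPM in optimal-sown seeds (-2.50, SE 0.36, adjusted p = 1.9e-04). Of 51 tested MYB genes (60 annotated) 3 were called higher and 3 lower (5.88% each), near the shares of the annotated genes. BnaC06g19980D, whose ortholog AT1G79180 is the lignin regulator MYB63, was at 30, 4 and 29 TPM in late-sown and at 1, 1 and 0 TPM in optimal-sown seeds (3.94, SE 0.64, adjusted p = 5.5e-04). BnaC06g35350D (ortholog AT1G74430) was at 3, 8 and 5 TPM in late-sown and at 13, 27 and 20 TPM in optimal-sown seeds (-1.85, SE 0.33, adjusted p = 0.0011, 0.0101 without late-sown replicate 1). Of 19 tested MADS-box genes (22 annotated) 2 were called higher and 0 lower (median 0.53). They were copies of AGL15 and AGL18, related factors of the embryo in Arabidopsis. The AGL15 copy BnaC03g06030D (ortholog AT5G13790) was at 16, 5 and 12 TPM in late-sown and at 3, 2 and 2 TPM in optimal-sown seeds (1.90, SE 0.39, adjusted p = 0.0032). The AGL18 copy BnaA07g17280D (ortholog AT3G57390) was at 29, 23 and 20 TPM in late-sown and at 13, 7 and 8 TPM in optimal-sown seeds (1.35, SE 0.26, adjusted p = 0.0019). Both lost their call without late-sown replicate 1 or optimal-sown replicate 2 (adjusted p between 0.0158 and 0.0275), and the AGL15 copy also without late-sown or optimal-sown replicate 3 (0.0189 and 0.0133). A second AGL15 copy, BnaA03g04490D, was at 15, 3 and 11 TPM in late-sown and at 1, 1 and 1 TPM in optimal-sown seeds and was not called (adjusted p = 0.015), though it was without late-sown replicate 2 (0.00327).

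The basic helix-loop-helix family had 19 tested genes (24 annotated), of which 4 were called lower and 0 higher (median -0.52). The list includes orthologs of MYC2 and MYC3, the factors that carry out jasmonate responses. The MYC2 ortholog BnaC05g28450D (AT1G32640) was at 7, 10 and 12 TPM in late-sown and at 22, 36 and 20 TPM in optimal-sown seeds (-1.37, SE 0.23, adjusted p = 7.3e-04). The MYC3 ortholog BnaC07g19420D (AT5G46760) was at 7, 9 and 9 TPM in late-sown and at 12, 21 and 13 TPM in optimal-sown seeds (-0.81, SE 0.18, adjusted p = 0.0051, between 0.0131 and 0.0375 without late-sown replicates 1 or 3 or optimal-sown replicate 2). Of 24 tested bZIP genes (27 annotated) 2 were called higher and 2 lower. Each share was 8.33%, against 4.6% higher and 5.1% lower over the annotated genes tested. ABI5 (BnaA05g08020D), the abscisic acid effector of late seed maturation, was at 1, 2 and 1 TPM in late-sown and at 5, 8 and 4 TPM in optimal-sown seeds (-1.74, SE 0.27, adjusted p = 4.1e-04). TGA7 (BnaC06g38430D) was at 0, 2 and 0 TPM in late-sown and at 5, 4 and 4 TPM in optimal-sown seeds (-2.49, SE 0.54, adjusted p = 0.0046), and was called only when late-sown replicate 2 was left out among the fits without 1 library. BnaC07g45120D, ortholog of the sucrose-regulated bZIP11 (AT4G34590), was at 92, 71 and 73 TPM in late-sown and at 49, 36 and 32 TPM in optimal-sown seeds (1.02, SE 0.15, adjusted p = 3.0e-04). BnaC09g00090D, ortholog of bZIP10 (AT4G02640), was at 42, 39 and 34 TPM in late-sown and at 31, 23 and 23 TPM in optimal-sown seeds (0.58, SE 0.12, adjusted p = 0.0032, between 0.0174 and 0.0245 without late-sown replicate 1 or optimal-sown replicates 2 or 3).

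Of 23 tested homeobox genes (26 annotated) 2 were called higher and 2 lower. Each share was 8.7%, against 4.6% higher and 5.1% lower over the annotated genes tested. KNAT4 (BnaA02g00810D) was at 3, 5 and 3 TPM in late-sown and at 12, 12 and 9 TPM in optimal-sown seeds (-1.49, SE 0.26, adjusted p = 0.0010). BnaA03g27000D, whose ortholog AT4G00730 acts in the epidermis, was at 23, 25 and 33 TPM in late-sown and at 21, 14 and 15 TPM in optimal-sown seeds (0.68, SE 0.15, adjusted p = 0.0055, between 0.0251 and 0.0387 without late-sown replicate 3 or optimal-sown replicates 2 or 3). The 8 tested Dof genes (12 annotated) had a median of 2.76 and no call by limma (6 at an unadjusted p under 0.05). Over all genes tested, 16348 of 53585 were at an unadjusted p under 0.05 by limma. The Dof genes BnaA08g09890D and BnaA08g09900D, which have identical values in every library and cannot be told apart, were at 208, 42 and 118 TPM in late-sown and at 15, 1 and 18 TPM in optimal-sown seeds (3.75, SE 1.01, adjusted p = 0.017). BnaA01g10910D, with the same ortholog (AT4G21030), was at 42, 11 and 32 TPM in late-sown and at 2, 0 and 10 TPM in optimal-sown seeds (3.41, SE 0.87, adjusted p = 0.013), and was called without late-sown replicate 2 or optimal-sown replicate 3 (0.00702 and 0.00202). For both entries the groups did not overlap, while optimal-sown replicate 2 was far below the other optimal-sown libraries. Of 15 WRKY genes none was called by limma (3 at an unadjusted p under 0.05), and of 9 tested B3 genes (12 annotated) only NGAL2 was.

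Sucrose transporters and invertases, which bring carbon into the seed, gave few calls. Of 10 tested genes (12 annotated) 1 was called lower and 0 higher, with a median of -0.45. It was SUC5 (BnaA07g23350D), a transporter of the endosperm in Arabidopsis, with 0, 0 and 1 TPM in late-sown and 8, 3 and 7 TPM in optimal-sown seeds (-3.07, SE 0.66, adjusted p = 0.0043, between 0.0128 and 0.0292 without late-sown replicates 1 or 2 or optimal-sown replicates 1 or 3). The sucrose exporter SWEET11 (BnaC03g52910D) was at 3, 4 and 4 TPM in late-sown and at 15, 12 and 6 TPM in optimal-sown seeds, and was not called although the groups did not overlap (-1.38, SE 0.55, adjusted p = 0.097). SWEET12 (BnaC09g04760D) was at 1, 2 and 1 TPM in late-sown and at 3, 2 and 2 TPM in optimal-sown seeds. SUC2 (BnaC07g13570D), the phloem loader, was at 3, 2 and 3 TPM in late-sown and at 4, 4 and 2 TPM in optimal-sown seeds. Both were at low levels with overlapping groups, as was the receptor kinase gene FER (BnaC07g32280D), with 0, 1 and 0 TPM in late-sown and 2, 4 and 1 TPM in optimal-sown seeds (adjusted p = 0.063).

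Photosynthesis, starch and clock genes showed small or single changes. Of 11 tested photosynthesis genes (12 annotated) 1 was called higher and 1 lower (median -0.53). RCA (BnaA05g05840D), the activase of Rubisco, was at 18, 16 and 18 TPM in late-sown and at 10, 9 and 6 TPM in optimal-sown seeds (1.04, SE 0.18, adjusted p = 8.1e-04). RBCS1B (BnaA07g14420D), a small subunit of Rubisco, was at 1, 3 and 3 TPM in late-sown and at 8, 15 and 8 TPM in optimal-sown seeds (-1.98, SE 0.48, adjusted p = 0.0090), a call lost without any single library except late-sown replicate 2 (adjusted p between 0.015 and 0.066). None of 3 annotated starch genes was called by limma, though all 3 had an unadjusted p under 0.05, as had 16348 of the 53585 genes tested. Among them GBSS1 (BnaC05g28320D), the granule-bound starch synthase, was at 45, 84 and 48 TPM in late-sown and at 76, 111 and 86 TPM in optimal-sown seeds (-0.66, SE 0.22, adjusted p = 0.048), and was called without late-sown replicate 2 (0.00325). Of 6 tested clock genes (7 annotated) 1 was called lower, PRR7 (BnaA10g26930D), with 4, 4 and 4 TPM in late-sown and 8, 7 and 7 TPM in optimal-sown seeds (-0.80, SE 0.17, adjusted p = 0.0042, between 0.0106 and 0.0192 without any single library except late-sown replicate 2). FLC (BnaC09g46540D), the repressor of flowering, was at 20, 20 and 24 TPM in late-sown and at 14, 10 and 12 TPM in optimal-sown seeds and was not called (0.81, SE 0.22, adjusted p = 0.016).

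Stress lists had few calls or none. By limma none of 19 tested heat shock genes (21 annotated) or 9 annotated dehydrin and late embryogenesis genes was called. The same held for the annotated genes of abscisic acid (4), jasmonate (3) and glucosinolates (1). At an unadjusted p under 0.05 there were 7 heat shock genes, 6 dehydrin and late embryogenesis genes, 2 abscisic acid genes and 1 jasmonate gene. Over all genes tested, 16348 of 53585 were at that level. The dehydrin ERD14 (BnaA07g21490D) was at 122, 16 and 69 TPM in late-sown and at 9, 21 and 4 TPM in optimal-sown seeds (2.42, SE 0.73, adjusted p = 0.032). Without late-sown replicate 2, its adjusted p was 0.0041. Dehydrin BnaA09g43150D was at 11, 6 and 9 TPM in late-sown and at 4, 2 and 5 TPM in optimal-sown seeds (adjusted p = 0.017, and 0.00795 without late-sown replicate 2). The small heat shock gene BnaC07g19750D was at 8, 20 and 11 TPM in late-sown and at 25, 27 and 51 TPM in optimal-sown seeds (-1.39, SE 0.35, adjusted p = 0.012, and 0.00246 without late-sown replicate 2). RD26 (BnaC07g40860D), a NAC factor of dehydration, was at 1, 1 and 1 TPM in late-sown and at 5, 6 and 2 TPM in optimal-sown seeds (adjusted p = 0.022, and 0.0095 without optimal-sown replicate 3). Of 18 tested glutathione S-transferases and glutaredoxins (22 annotated) 1 was called lower, BnaA03g14150D (ortholog AT2G30870), with 10, 11 and 8 TPM in late-sown and 17, 27 and 19 TPM in optimal-sown seeds (-1.06, SE 0.21, adjusted p = 0.0023). Of 4 tested thaumatin genes (6 annotated) 1 was called lower, BnaC05g13990D (ortholog AT1G18250), with 4, 7 and 7 TPM in late-sown and 12, 20 and 16 TPM in optimal-sown seeds (-1.35, SE 0.27, adjusted p = 0.0028). Both calls were lost without optimal-sown replicate 2 (adjusted p = 0.0187 and 0.0209), the first also without late-sown replicate 3 (0.0166), the second also without late-sown replicate 1 or optimal-sown replicate 3 (0.0242 and 0.0101).

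The annotated genes of the machinery of growth gave few calls. By limma none of 33 core histone genes (5 at an unadjusted p under 0.05) or 19 tested cyclin and cyclin-dependent kinase inhibitor genes (21 annotated, 12 at an unadjusted p under 0.05) was called, and 2 of 156 tested ribosomal protein genes (159 annotated) were called higher. Over all genes tested, 16348 of 53585 were at an unadjusted p under 0.05. The medians of these lists were 0.06 for histones, 0.03 for ribosomal proteins and -0.20 for cyclins, and the first pair turned to -0.10 and -0.13 when each library was rescaled to the same sum. The ribosomal genes called were BnaA04g09660D (ortholog AT5G39850), with 31, 11 and 23 TPM in late-sown and 4, 7 and 6 TPM in optimal-sown seeds, and BnaC07g18940D (ortholog AT5G46160), with 19, 4 and 9 TPM in late-sown and 1, 0 and 2 TPM in optimal-sown seeds. Their adjusted p was 0.0020 each, and 0.0182 and 0.0186 without late-sown replicate 1. The first was also lost without late-sown replicate 3 or optimal-sown replicate 1 (0.0128 and 0.0108), the second also without optimal-sown replicate 2 (0.0155). The only annotated replication licensing gene, BnaCnng01120D (ortholog AT4G02060), was at 5, 6 and 5 TPM in late-sown and at 7, 10 and 10 TPM in optimal-sown seeds (-0.69, SE 0.15, adjusted p = 0.0041, between 0.0214 and 0.0281 without late-sown replicates 1 or 3 or optimal-sown replicates 2 or 3).

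Some genes were detected in seeds of a single sowing date. With at least 5 TPM in all 3 libraries of a group and 0 in all 3 of the other, 46 genes were listed in late-sown seeds only and 9 in optimal-sown seeds only. Most of the first set, 42 of 46, were too low in the other Lumen libraries to pass the filter and were not tested. The first set included the GDSL lipase gene BnaA07g23590D (ortholog AT1G71250), at 34, 5 and 25 TPM in late-sown seeds, and the neprosin gene BnaA10g20870D (ortholog AT5G05030), at 44, 6 and 27 TPM. It also included the MYB gene BnaA03g06730D (ortholog AT5G17800), at 15, 5 and 11 TPM, and BnaA03g31000D of the reversibly glycosylated polypeptide family, at 117, 6 and 59 TPM. The set seen in optimal-sown seeds only included both NAC047 copies and BnaC01g02970D, described above. These examples are annotated genes named after their values were seen.

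The genes that separated the sowing dates were largely those that change as seeds develop. Lists of developmental genes compare group means of libraries outside this comparison, the Lumen control plots. There, 7582 genes differed between 14 and 7 DAF (14.1%), 3949 higher (7.37%) and 3633 lower (6.78%) at 14 DAF. The spread in that test was shared by all Lumen groups, so the compared libraries entered it. It called 7363 genes without optimal-sown and 7992 without late-sown shaded replicates 1 and 2 at 14 DAF, respectively. Genes with a small shared spread are called more readily in both contrasts, so the shares of calls below are not from independent lists. Of the 3949 genes that rose with development, 1371 were called higher in late-sown shaded seeds (34.7%) and 1 lower, with a median of 0.77, and 94.4% had a positive difference. Of the 3633 genes that fell with development, 1140 were called lower (31.4%) and 0 higher, with a median of -0.73. Put the other way, 76.5% of the genes called higher and 62% of those called lower in late-sown seeds were developmental genes that moved in that direction between 7 and 14 DAF. The counts fell to between 681 and 765 higher and between 459 and 595 lower without late-sown replicates 1 or 3 or optimal-sown replicate 2, while the medians stayed between 0.69 and 0.87 and between -0.80 and -0.65 in every fit without 1 library. No p-value is given for these counts, since genes are not replicates.

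**Figure D4:**
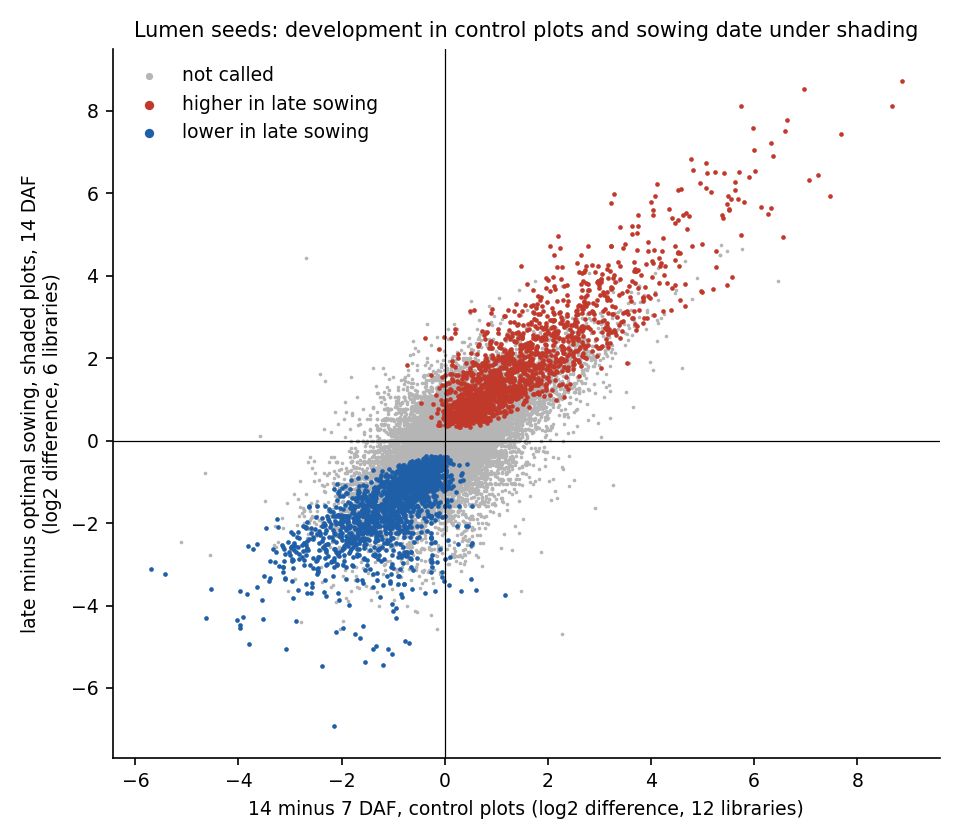
Difference between late-sown and optimal-sown seeds in shaded plots at 14 DAF (vertical axis, log2) against the difference between 14 and 7 DAF in control plots (horizontal axis, log2), with 1 point per gene tested and no library shared between the axes. Genes called higher in late-sown seeds lie mostly at the right, where genes rise with development, and genes called lower mostly at the left.

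The level of the developmental genes in each library can be set against that in control plots at 7 DAF. The genes that rose with development had a median level of 1.18, 0.89 and 1.12 on the log2 scale above control plots at 7 DAF in late-sown shaded replicates 1, 2 and 3 at 14 DAF. In optimal-sown shaded seeds at 14 DAF it was 0.41, 0.08 and 0.28, so that no library overlapped. In control plots at 14 DAF, from which the list was taken, the medians were 1.27, 1.21 and 1.14 in late-sown and 0.75, 0.79 and 0.70 in optimal-sown seeds. In shaded plots at 7 DAF they were 0.05, 0.31 and 0.10 in late-sown and -0.25, -0.11 and -0.10 in optimal-sown seeds. Optimal-sown shaded seeds at 14 DAF thus lay below all libraries of the other 14 DAF groups, with replicate 1 above every 7 DAF library named here and replicates 2 and 3 within the range of those libraries. The genes that fell with development gave the mirror image, with -1.02, -0.70 and -0.92 in late-sown and -0.25, -0.04 and -0.21 in optimal-sown shaded seeds at 14 DAF. Whether the difference in developmental level accounts for the calls of single genes was not tested.

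**Figure D5:**
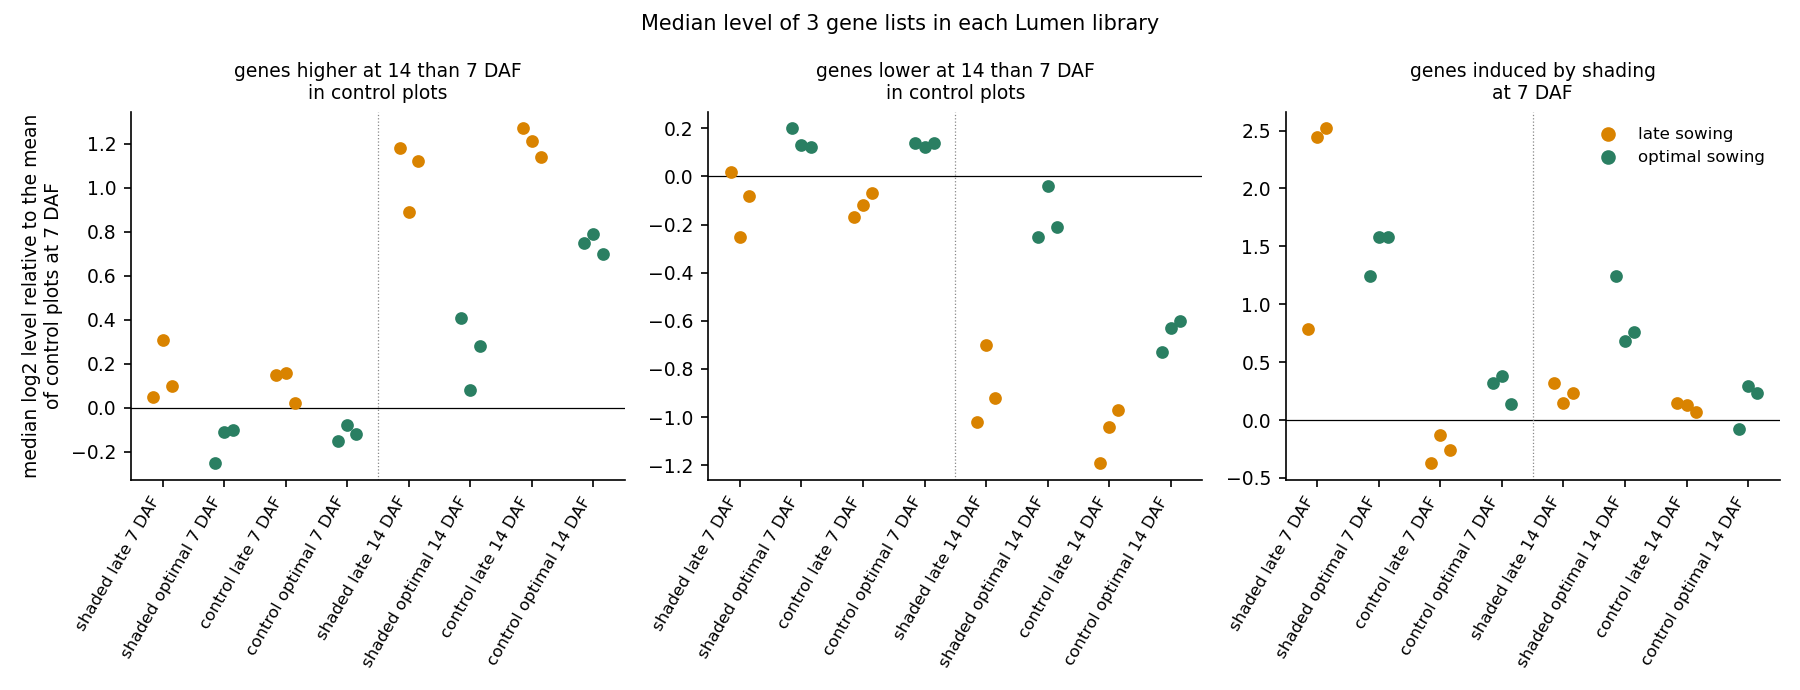
Median log2 level of 3 gene lists in each of the 24 Lumen libraries relative to control plots at 7 DAF, for genes that rise with development, genes that fall with development and genes induced by shading at 7 DAF. In each panel 7 DAF is left and 14 DAF right, with late-sown left of optimal-sown seeds and 1 point per library. In the first panel the late-sown shaded libraries at 14 DAF (0.89 to 1.18) lie above the optimal-sown ones (0.08 to 0.41).

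Some genes that shading raised at 7 DAF were lower in late-sown seeds at 14 DAF. Shading changed 1008 genes at 7 DAF in Lumen (1.88%) and raised 817 (1.52%) and lowered 191 (0.356%) of them. The group means of this list are from libraries outside this comparison, but its test used the spread shared with the compared libraries. The shares of calls below are therefore not from independent lists. Of the 817, 151 were called lower (18.5%) and 17 higher in late-sown shaded seeds at 14 DAF (median -0.53), with 68 to 138 called lower when 1 library was left out. Their median level was 0.32, 0.15 and 0.23 above control plots at 7 DAF in late-sown replicates 1, 2 and 3, against 1.24, 0.68 and 0.76 in optimal-sown replicates, with no overlap. At 7 DAF the medians in shaded plots, from which the list was taken, were 0.79, 2.44 and 2.52 in late-sown and 1.24, 1.58 and 1.58 in optimal-sown seeds, with late-sown replicate 1 apart from the others of its group. At 7 DAF late-sown replicates 2 and 3 thus lay above all optimal-sown shaded libraries and late-sown replicate 1 below them, while at 14 DAF all late-sown libraries lay below. In control plots at 7 DAF, which also entered the list, the medians were -0.37, -0.13 and -0.26 in late-sown and 0.32, 0.38 and 0.14 in optimal-sown seeds, without overlap. In control plots at 14 DAF they were 0.15, 0.13 and 0.07 in late-sown and -0.08, 0.29 and 0.23 in optimal-sown seeds, and the groups overlapped. Of the 191 genes lowered by shading, 46 were called higher (24.1%) and 11 lower at 14 DAF, with a median of 0.22.

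The same contrast of sowing dates in control plots at 14 DAF called 420 genes (0.784%), 273 higher (0.509%) and 147 lower (0.274%) in late-sown seeds. This count was 1176 with low values unfiltered, 1108 with a minimum of 1 TPM in 3 of the 6 shaded libraries, 748 with all 48 libraries of the series, and 1102 without late-sown shaded replicate 2, which enters through the shared spread. That shaded and control plots differ in this contrast was not shown. The interaction of sowing date and S–S ratio at 14 DAF called 0 genes (0%) by limma. An unadjusted p under 0.05 was reached by 3847 of 53585 genes, against 16348 for the sowing date contrast in shaded plots. With other settings it called between 0 and 27 genes. Of the 273 genes higher in control plots, 176 were called higher and 0 lower in shaded plots (median 1.51), and of the 147 lower ones, 107 were called lower and 0 higher (median -1.34). WRI1 copy BnaA07g16350D was at 151, 56 and 43 TPM in late-sown and at 5, 7 and 8 TPM in optimal-sown control seeds, so the optimal-sown control level was above the optimal-sown shaded level of 1 to 2 TPM. TT4 copy BnaA03g04590D was at 254, 180 and 102 TPM in late-sown and at 43, 36 and 40 TPM in optimal-sown control seeds. NAC047 copy BnaC01g40250D was listed at 0 in late-sown control seeds and was at 1, 4 and 5 TPM in optimal-sown control seeds. In these 3 genes the late-sown levels overlapped or were equal between shaded and control plots, and the optimal-sown shaded seeds were on the far side of the optimal-sown control seeds, but the interaction was not called for any of them (adjusted p = 0.69, 0.36 and 0.60).

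At 7 DAF the sowing dates already differed in shaded plots. The contrast called 1533 genes (2.86%) at 7 DAF, 919 higher (1.72%) and 614 lower (1.15%). Of the 919, 140 were called higher (15.2%) and 35 lower (3.81%) at 14 DAF, with a median of 0.07. Of the 614, 8 were called higher (1.3%) and 83 lower (13.5%), with a median of -0.14. Over all genes tested the shares were 3.34% and 3.43%. The interaction of sowing date and developmental time in shaded plots called 1505 genes (2.81%), 653 with a more positive (1.22%) and 852 with a more negative (1.59%) difference at 14 DAF. It called 499 genes without optimal-sown replicate 2 at 14 DAF, 509 and 695 without late-sown replicates 1 and 3, and 3211 without late-sown replicate 2. The falls of NAC047 and HB21 belong to this group. NAC047 copy BnaC01g40250D was at 19, 152 and 142 TPM in late-sown and at 36, 49 and 48 TPM in optimal-sown shaded seeds at 7 DAF, whereas at 14 DAF it was listed at 0 in late-sown seeds (interaction -5.82, adjusted p = 0.0020). HB21 copy BnaA09g09650D was at 74, 351 and 295 TPM in late-sown and at 124, 237 and 228 TPM in optimal-sown shaded seeds at 7 DAF (interaction -3.44, adjusted p = 0.0047). At 7 DAF both genes overlapped between sowing dates, with late-sown replicate 1 the lowest. The pectinesterase BnaC07g20260D was lower in late-sown seeds at both times, with 18, 7 and 11 TPM in late-sown and 45, 40 and 37 TPM in optimal-sown shaded seeds at 7 DAF (-1.81, adjusted p = 6.4e-04), and its interaction was not called (adjusted p = 0.35).

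Rapeseed is an allotetraploid, so an Arabidopsis gene usually has several copies on its A and C subgenomes. Calls were spread evenly over both, with 3.32% higher and 3.60% lower of 25262 tested A genes and 3.36% higher and 3.29% lower of 28154 tested C genes. Of 630 orthologs with at least 2 tested copies in the annotated set, 110 had at least 1 copy called and 34 at least 2. Among these 34, copies were called in opposite directions for 3 orthologs. The annotated set itself, 5023 tested genes, held 231 called higher (4.6%) and 256 called lower (5.1%), with a median of -0.08.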

How the data were processed

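Total RNA from seeds was sequenced by the study in 48 libraries, 16 groups of 3. Per the study's methods, the authors assigned reads to Brassica napus cDNAs of Ensembl Plants with kallisto 0.46 and normalized them with sleuth. The deposited unit is a score: normalized TPM that the authors rounded to whole numbers. It lay within 0.5 TPM of 49905 unrounded values of 1109 genes in 45 libraries. The supplementary tables were used for names only (5779 annotated genes, 4673 with an Arabidopsis ortholog), and columns that hold the authors' own tests were not used.

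The 24 Lumen libraries (8 groups) were fitted with limma (version 3.58.1, R 4.3.3, with the package data.table at 1.17.8), using a mean per group and a mean-variance trend. The input was log2(TPM + 0.5) of every gene that reached 1 TPM in 47% or more of these libraries. An adjusted p under 0.01 was called. Interactions were contrasts of the same fit, which does not pair the sampling days. The Solar libraries, of the other hybrid, were left out and enter 1 alternative. The method was tested on simulated data. Replicates are field plots. With 3 against 3 libraries an exact permutation test cannot go below p = 0.10, so none is given per gene. Figures were drawn with matplotlib 3.10.9 in Python 3.11.15 (numpy 2.4.6, pandas 2.3.3).

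The members and gene lists were chosen with earlier results of these data known. Named are the 10 annotated genes with the largest rise and the 10 with the largest fall among called genes without overlap and with a higher group mean of at least 10 TPM, the 3 largest of each over all genes, up to 4 members with the smallest p per list as far as they are described, and factors that the study named. The further copies of BCCP2 and TT4, TT5, TT7, FLS1, OLEO2 and BnaC03g37090D were named after their values were seen. Alternatives were another pseudocount, filter, scaling, set of libraries, threshold and trend, a replicate block, and leaving out single libraries. No sequences are printed.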

Additional observations from a re-analysis of the deposited data

Results flagged for a closer look

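The difference between late and optimal sowing in shaded Lumen plots was not the same at 14 and at 7 DAF for 1505 genes, by the interaction of sowing date and time (limma, adjusted p under 0.01). Among the genes named in the report, 32 passed this test. The values below are the late minus optimal difference at 14 DAF minus that at 7 DAF on the log2 scale, and the count of such genes was between 499 and 3211 when 1 library at 14 DAF was left out.

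For genes that were higher in late-sown seeds at 14 DAF the interaction was 3.54 for WRI1 copy BnaC08g25150D (3.91 at 14 DAF and 0.37 at 7 DAF) and 3.60 for WRI1 copy BnaA09g34250D. It was 2.22 for BCCP2 copy BnaA03g05470D and 1.78 for the FAD6 ortholog BnaC01g07470D. The values were 5.45 for BnaA01g04820D, 4.39 for the VQ gene BnaA10g22980D, 4.47 for the MYB63 ortholog BnaC06g19980D, 1.26 for the bZIP11 ortholog BnaC07g45120D and 1.16 for RCA (BnaA05g05840D). Among unannotated genes they were 7.25 for BnaC04g30640D, 8.52 for BnaA01g27700D and 7.35 for BnaC03g31600D. The peroxidases BnaC06g21080D and BnaC08g22410D had interactions of 1.65 and 3.80. The second was lower in late-sown seeds at 7 DAF (-1.83) and higher at 14 DAF (1.96). The aquaporin BnaC08g31360D, with an interaction of 1.48, also differed in sign between the times, with -0.77 at 7 DAF and 0.71 at 14 DAF.

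Genes that were lower in late-sown seeds at 14 DAF are given next, and most of them were not called at 7 DAF. The interaction was -5.82 and -5.37 for the NAC047 copies BnaC01g40250D and BnaA05g37410D, -3.88 for the NAC gene BnaC07g25530D and -2.86 for RD26 (BnaC07g40860D), which was not called at 14 DAF. It was -3.44 and -3.15 for the HB21 copies BnaA09g09650D and BnaCnng58720D, -3.10 for NGAL2 (BnaC01g44850D), -1.77 for KNAT4 (BnaA02g00810D) and -2.69 for the AP2/ERF gene BnaC08g30700D. The cytochrome P450 genes BnaA01g00520D and BnaC01g01500D had -5.82 and -5.48, and the GH3 gene BnaA01g00580D had -4.56. The expansin BnaC04g40170D had -2.22 and the aquaporin BnaA09g33720D -1.36. The genes BnaC01g02970D, BnaC04g16470D and BnaCnng18480D had -4.88, -4.54 and -7.08. Late-sown shaded replicate 1 at 7 DAF was far below the other late-sown replicates for many of these genes, as for NAC047 in the report, and fits without that library were not run.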

How the results depend on the processing

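Each of the 3630 called genes kept its sign under every alternative in which it was tested. The count moved by over 1.5 times to 440 (118 higher, 322 lower) when the 6 libraries were fitted alone and to 8500 (4019, 4481) at an adjusted p under 0.05. Without 1 library it ranged from 1354 to 5601 (725 to 2641 higher, 629 to 2960 lower). Higher calls numbered 2689 when genes needed at least 1 TPM in 3 of the 6 libraries. Under the other alternatives the count lay between 3114 and 4767. The interaction of sowing date and S–S ratio called 27 genes with no filter, 5 with that filter, 15 with no mean-variance trend, 13 at an adjusted p under 0.05, 1 without both libraries numbered 2 and 0 to 7 without 1 library. The interaction with time (1505) called 6543 at an adjusted p under 0.05 and 499 to 3211 without 1 library. The control plot contrast (420) called 1176 with no filter, 1108 with at least 1 TPM in 3 of 6, 748 with all 48 libraries, 2808 at an adjusted p under 0.05, 1116 without both libraries numbered 2 and 349 to 1102 without 1 library. At an adjusted p under 0.05 the contrasts called 4906 genes at 7 DAF in shaded plots, 12742 between 14 and 7 DAF in control plots and 2576 for shading at 7 DAF. The causes were not tested.

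Uncalled genes changed sign. TT7 (BnaA10g23330D) had -0.040 with each library rescaled to the same sum, -0.003 with quantile normalization, -0.035 to 0.347 without 1 library (lowest without late-sown replicate 3) and -0.047 without both libraries numbered 2. NAC082 (BnaC09g47170D) had -0.130 and -0.028 under the same scalings in that order, and -0.067 to 0.166 without 1 library, negative without late-sown replicates 1 or 3 or optimal-sown replicate 3 (-0.016, -0.067 and -0.031). NAC041 (BnaC04g43920D) had -0.525 to 0.268 without 1 library, positive without late-sown replicate 2 or optimal-sown replicate 1 (0.268 and 0.059), and 0.145 without both libraries numbered 2, and SUC2 (BnaC07g13570D) had 0.061 without both. Of the 85 called genes named in the text, 49 were called without each library, and 0 were called when the 6 libraries were fitted alone, a fit that kept 136 of the 3630 calls.

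Whether the replicate numbers pair the samples is not settled, and the main fit took them as unpaired. Deviations of same-numbered late-sown and optimal-sown libraries correlated at 0.11, 0.24 and 0.09, and those of differently numbered libraries at -0.17 to 0.11. Optimal-sown replicate 3 correlated better with late-sown replicate 1 (0.11) than with its own number (0.09). With a replicate block the count was 3803 (1804 higher, 1999 lower), 3390 of the 3630 calls were kept, and the interaction with time called 1953 genes. The block changed the call of 2 of the 107 named genes, both to called.

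Depth is unknown, whole numbers are coarse for genes at a few TPM, and 3 replicates with 1 apart in each group limit the precision.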
